A study of Mus musculus with 25 samples.

Results

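The genes described here are Coil, which encodes coilin, the scaffold protein of the Cajal body, and 7 genes for proteins that reside in or pass through that body: Smn1, Gemin2, Sart3, Wrap53, Dkc1, Nolc1 and Fbl. They were chosen by name, and Coil was put at their head because its estimated count had the largest rise of the well-measured genes in Dot1L knockout cells. The difference between knockout and wild-type cells is therefore given for all 8 as a description, with no test. All 8 had a row in both RNA tables, among 35731 genes in the table of mouse embryonic stem cells (mESCs) and 24062 in that of 8-cell embryos. All 8 passed the filter on low counts in both, where 19532 and 14351 genes were tested.

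Dot1L adds methyl groups to lysine 79 of histone H3, and SGC0946 inhibits that enzyme. The mESCs were of the v6.5 strain, untreated, and either wild type (WT, 3 RNA libraries) or Dot1L KO (2 RNA libraries). ChIP of dimethylated (H3K79me2) and trimethylated (H3K79me3) lysine 79 was done on the same WT and KO cells with 2 libraries per genotype and mark. The 8-cell embryos were wild type, from the cross B6D2F1 x Cast/EiJ, taken 56 hours after fertilization in pools of 30 to 35, and had been given DMSO (2 pools) or SGC0946 (2 pools). The labels do not say which part of Dot1L was deleted, how many KO clones were used, at which dose or from which time SGC0946 was given, or whether replicates were separate cultures, so p-values measure only the spread between these libraries, which may be technical.

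Cajal bodies are nuclear bodies in which small nuclear RNAs of the spliceosome and small nucleolar RNAs are modified and assembled into particles. Coilin holds the body together, and the SMN complex brings in newly made small nuclear ribonucleoproteins (snRNPs). Guide RNAs bound by dyskerin or fibrillarin direct the modification of single nucleotides. Telomerase RNA also passes through the body, carried there by WRAP53. Methylation of lysine 79 of histone H3 is known to lie over the first part of transcribed genes, after the start site.

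RNA totals were 26860527 to 33755064 estimated counts per mESC library and 24950199 to 32479590 counts per embryo library. Levels are given in CPM, the usual per-library rate after TMM scaling, and they are not comparable between genes, since transcript lengths were not used. The coefficient of biological variation over all genes was 0.0467 in mESCs and 0.442 in embryos. Dot1l itself had 104.3, 96.9 and 99.2 CPM in WT and 81.4 and 71.5 in KO, and whether its counts come from the deleted part is unknown. Summed markers of pluripotent cells stood at 3413 to 3450 CPM in WT and 2672 to 2810 in KO (4 of 6 called lower). Those of primitive endoderm stood at 19.8 to 21.8 and 46.1 to 52.2 CPM (5 of 7 called higher, none at 0). Gata4 and Sox7 of that set had log2 differences of −0.13 and −0.19. Fibroblast markers stood at 152.7 to 195.0 and 195.2 to 243.1 CPM (3 of 7 called higher, none at 0). Dcn and Col3a1 among them had −0.12 and −0.14. Over all tested genes, 22.3% were called higher and 21.6% lower. In embryos, pluripotency markers summed to 1389 to 1408 CPM with DMSO and 920 to 1061 with SGC0946, with 0 of 6 called. There, 6 of 7 fibroblast markers and 5 of 6 markers of cumulus and granulosa cells were below 1 CPM in every pool. The remaining cumulus and granulosa marker, Amhr2, stood at 37.1 to 44.2 CPM. The part of these shifts in the differences of the Cajal body genes was not tested, and in bulk RNA fewer cells of a type and less RNA per cell cannot be told apart.

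Coil had 24.7, 30.5 and 27.5 estimated counts in WT mESCs and 498 and 538 in KO mESCs, which is 0.906, 0.953 and 0.975 CPM against 17.5 and 17.5 CPM. Both KO libraries lay far above the 3 WT libraries (0.945 ± 0.0352 CPM, SD, n = 3, against 17.5 ± 0.00233 CPM, SD, n = 2). Over all genes, replicate libraries differed by more than counting noise. These SDs of so few libraries therefore do not show how precisely Coil was measured. The difference was 4.20 on the log2 scale (SE 0.12), a ratio of mean CPM of 18.5. The next largest rises by the same filter were Gm4782 (log2 difference 3.34) and Muc3 (3.29). None of the 5 Coil counts was a whole number, as was so in some library for 66.8% of the tested genes. The estimated count of a gene becomes fractional where reads that also fit transcripts of other genes are divided between the genes.

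The higher count of Coil in KO came with lower counts in the rows just before it. Coil lies on chromosome 11 from 88973935 to 88991613 (GRCm38.p6, plus strand). Elobl, the nearest protein-coding gene on its upstream side and an elongin B-like gene, ends 7003 bp before it (chromosome 11, 88964658 to 88966931). The estimated counts of Elobl were 301, 377 and 380 for WT and only 80.7 and 97.6 for KO, a log2 difference of −1.98 (SE 0.13; edgeR adjusted p = 6.5e-08). The transcribed pseudogene 2210409E12Rik lies between them, 920 bp before Coil (chromosome 11, 88972638 to 88973014), and was chosen after its values were seen. It had 197, 275 and 233 estimated counts in WT and 60.6 and 98.9 in KO, a log2 difference of −1.55 (SE 0.16). In both genes every KO library lay below every WT library, and neither had whole counts.

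Added together, the 3 rows held nearly the same number of counts in both genotypes. Their sum was 523, 683 and 641 estimated counts in WT and 640 and 735 in KO, or 19.0, 21.0 and 22.3 CPM against 22.5 and 23.9 CPM. The KO values lay just above the highest WT value, and the log2 difference of the sum was 0.16 (SE 0.07), against 4.20 for Coil alone. Of that sum, Coil held 4.71, 4.47 and 4.30% in WT but 77.9 and 73.2% in KO. This sum was chosen after the counts were seen. It was not whole in any library (523.08, 682.93 and 640.76 in WT, 639.70 and 734.87 in KO). Reads may therefore also be divided with rows outside these 3. Whether the same reads were divided differently or different RNA was made was not tested, since the analysis starts from one estimate per gene. The division of counts between Coil and these rows is therefore uncertain.

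**Figure D1:**
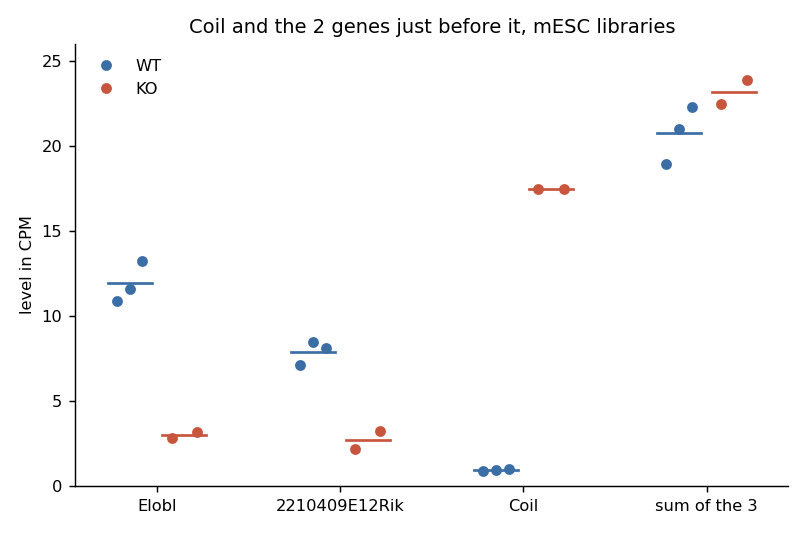
Level in CPM of Elobl, 2210409E12Rik, Coil and the sum of the 3 in each mESC library (points; WT blue, KO red), with the mean of each genotype as a line. Coil moves from about 0.945 to 17.5 CPM while the other genes move down, and the sums lie at 19.0 to 22.3 CPM in WT and 22.5 to 23.9 CPM in KO.

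The remaining neighbours of Coil did not share the size of these differences. On the upstream side, Scpep1, a serine carboxypeptidase gene, had whole counts and a log2 difference of 0.05 (SE 0.05, edgeR adjusted p = 0.451). Akap1, an anchor of protein kinase A, had −0.03 (SE 0.04, adjusted p = 0.593). On the downstream side, Trim25, an E3 ubiquitin ligase gene, fell by 0.33 on the log2 scale (SE 0.04, edgeR adjusted p = 3.9e-05), and Dgke, a diacylglycerol kinase gene, fell by 0.23 (SE 0.06, adjusted p = 0.0044). Gm525 was too low to be tested.

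Among 16445 other genes with at least 1 CPM, the 3 whose mESC pattern lay nearest to that of Coil were Muc3, Cubn and Pkhd1l1, at Euclidean distances of 1.39, 1.46 and 1.77 over the 5 libraries in log2 CPM relative to the WT mean. All 3 had whole counts. Cubn, which encodes an endocytic receptor and is among the primitive endoderm markers, went from 39, 55 and 51 counts in WT to 472 and 391 in KO. Muc3, a mucin gene, went from 11, 25 and 15 counts to 155 and 179. These genes were selected for their likeness to Coil, so their differences are a description too.

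The proximal promoter of Coil is shown because the 2 rows that moved against it lie just before it, and those of Dkc1 and Nolc1 because Dkc1 had the largest difference downward and Nolc1 held the most GC boxes of the genes matched. Each is the 250 bases before the start given by RefSeq, on GRCm38.p6 and 5′ to 3′. Capitals mark matches to a GC box, spelled GGGCGG, or to the letters of a TATA box, spelled TATAAA. Both strands were searched, and the CCAAT box was searched in the same way but has no match in these windows. No matches overlap. They are Coil at chr11:88973685-88973934 (plus strand), Dkc1 at chrX:75095604-75095853 (plus strand) and Nolc1 at chr19:46075597-46075846 (plus strand).
Coil: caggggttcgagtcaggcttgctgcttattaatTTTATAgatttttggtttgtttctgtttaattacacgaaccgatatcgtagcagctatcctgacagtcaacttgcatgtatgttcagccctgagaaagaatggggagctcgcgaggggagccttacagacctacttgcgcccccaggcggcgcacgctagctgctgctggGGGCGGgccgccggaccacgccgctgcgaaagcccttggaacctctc
Dkc1: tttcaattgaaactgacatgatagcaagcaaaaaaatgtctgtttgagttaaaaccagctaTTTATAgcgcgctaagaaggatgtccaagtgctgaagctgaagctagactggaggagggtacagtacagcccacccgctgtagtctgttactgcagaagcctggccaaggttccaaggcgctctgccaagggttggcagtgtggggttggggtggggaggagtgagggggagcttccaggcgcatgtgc
Nolc1: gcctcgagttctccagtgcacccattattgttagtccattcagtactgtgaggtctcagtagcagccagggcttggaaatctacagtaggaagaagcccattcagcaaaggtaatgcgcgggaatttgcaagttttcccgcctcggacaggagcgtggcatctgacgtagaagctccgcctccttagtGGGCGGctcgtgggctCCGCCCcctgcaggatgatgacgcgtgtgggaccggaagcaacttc

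The Coil window held 1 GC box and 1 match to the TATA letters on the reverse strand, had a GC content of 54.8% and contained 16 CpG dinucleotides. Its CpG number was above the median of 6 over all 32851 promoters of the same length, and its GC content was near the median of 52.4%. Nolc1 had 2 GC boxes and 14 CpG, and Dkc1 had no GC box, 1 match to the TATA letters on the reverse strand and 5 CpG. Of all promoters of that length, 32.7% held a GC box, 33.8% a CCAAT box and 12.4% the TATA letters. RefSeq promoters were matched for 6 of the 8 genes, leaving Fbl and Sart3. None of the 8 peak lists had a peak over any of these windows.

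Of the other scaffold and guide-RNA genes, Dkc1 had the largest difference in mESCs. Dkc1 encodes dyskerin, the pseudouridine synthase that binds box H/ACA guide RNAs and telomerase RNA. Its level was 362.6, 368.8 and 363.5 CPM in WT and 164.7 and 190.4 CPM in KO. Both KO libraries lay at less than 200 CPM, well below all WT libraries, and the log2 difference was −1.04 (SE 0.05). Dkc1 is the only one of the 8 on chromosome X (75095854 to 75109776), where 88.2% of 593 genes with at least 1 CPM had a lower level in KO and the median log2 difference was −0.65, against 49.0% and 0.01 for 15325 autosomal genes. Of those X-linked genes, 106 (17.9%) had a log2 difference below that of Dkc1. Dkc1 shares 118 bp with the small nucleolar RNA gene Gm25520 and 44 bp with Mpp1, and its counts were not whole.

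The SMN complex is represented by Smn1, its core protein, and Gemin2, which binds SMN and holds the ring of Sm proteins. Gemin2 had 41.3, 40.8 and 40.1 CPM in WT and 30.8 and 33.0 in KO, a log2 difference of −0.35 (SE 0.05). Smn1 had 52.1, 51.8 and 49.1 CPM in WT and 44.4 and 48.4 in KO, a log2 difference of −0.14 (SE 0.05), or −0.08 without KO replicate 1, −0.20 without KO replicate 2 and −0.07 with upper-quartile scaling. Both KO values were below all WT values for each gene, but for Smn1 the nearest pair was 49.1 and 48.4 CPM. The counts of Smn1 were whole and those of Gemin2 were not.

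Nolc1 encodes a phosphoprotein that shuttles between the nucleolus and Cajal bodies and binds guide RNA particles. Its level was 303, 308 and 301 CPM in WT and 248 and 281 in KO, a log2 difference of −0.20 (SE 0.05) without overlap, or −0.11 without KO replicate 1, −0.30 without KO replicate 2 and −0.13 with upper-quartile scaling. Fbl encodes fibrillarin, the methyltransferase of box C/D guide RNA particles, and had 179, 173 and 172 CPM in WT against 176 and 181 in KO (log2 difference 0.03, SE 0.04). The Fbl libraries of the 2 genotypes overlapped.

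Sart3 returns U6 snRNA to spliceosomal particles and associates with coilin. It had 119, 114 and 117 CPM in WT and 116 and 114 in KO, and the genotypes overlapped (log2 difference −0.03, SE 0.04). That sign turned to 0.04 with upper-quartile scaling, which moved the median log2 difference of all genes from 0.00 to 0.07. Wrap53 encodes the protein that brings telomerase and the small Cajal body RNAs to the body, and it was the only one of the 8 besides Coil whose KO libraries all lay above the WT libraries. Its 3 WT libraries stood at 18.9, 16.9 and 18.2 CPM and its KO libraries at 20.6 and 22.3 CPM, a log2 difference of 0.26 (SE 0.07). Pseudogenes lie within Wrap53 (Rps27-ps2, 342 bp) and Sart3 (Gm3511, 315 bp), and the counts of both genes were whole in all 5 libraries.

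The mESC libraries of the 2 genotypes did not overlap for 6 of the 8 genes, where this held for 62.5% of tested genes (31.8% higher and 30.7% lower in KO). Their log2 differences were below 0 for 5 of the 8, as for 49.9% of tested genes. Since this contrast was used to choose Coil, nothing is read from these counts.

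**Figure D2:**
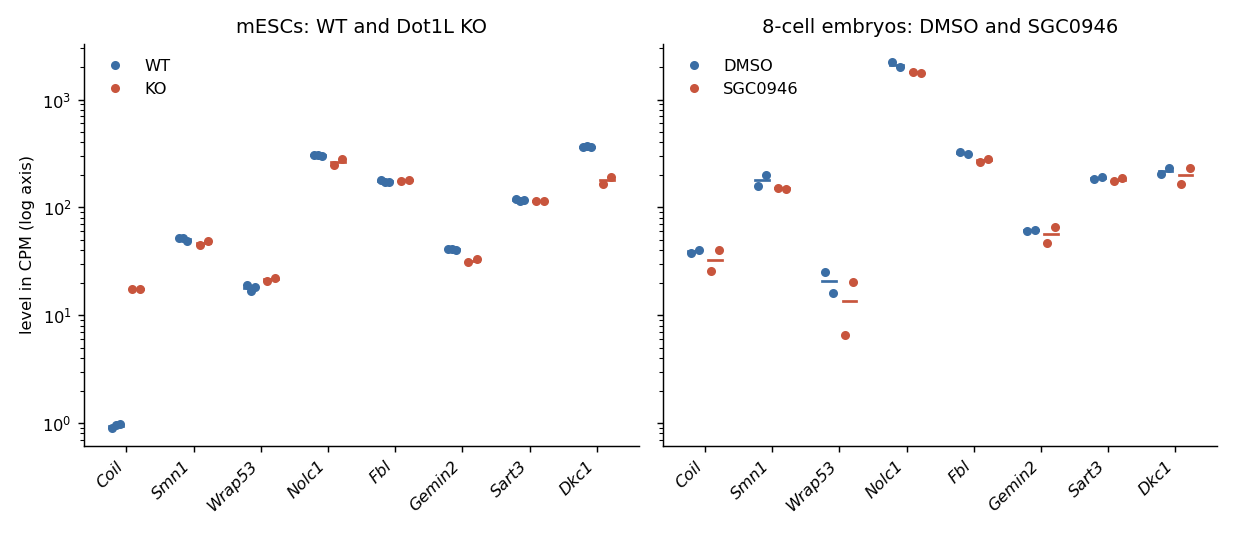
Level in CPM (log axis) of the 8 genes in each RNA library, with mESC libraries on the left (WT blue, KO red) and embryo pools on the right (DMSO blue, SGC0946 red), and group means as lines. In mESCs Coil stands at 0.906 to 0.975 CPM in WT and 17.5 in KO and Dkc1 lies lower in KO, while in embryos the pools overlap for 5 of the 8 genes.

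In embryos, inhibition of Dot1L was followed by no called difference in any of the 8 genes. Coil had 1024 and 1071 counts with DMSO and 668 and 1317 with SGC0946, or 37.7 and 40.4 CPM against 25.5 and 40.1 CPM. The SGC0946 pools lay further apart than the DMSO pools, one below both DMSO pools and the other between them. The log2 difference was −0.25 (SE 0.26, edgeR adjusted p = 0.877), and it was 0.04 without SGC0946 replicate 1. 2210409E12Rik had 2008 and 2088 counts with DMSO and 2876 and 2321 with SGC0946, a log2 difference of 0.24 (SE 0.21). Elobl had no row under that name in the embryo table, so its level there is not known. The embryo counts were whole reads, so Coil was not measured in the same way in the 2 tables, and no level is compared between them.

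Among the guide-RNA proteins, Nolc1 had 2216 and 1983 CPM with DMSO and 1815 and 1777 with SGC0946, with no overlap. Its log2 difference of −0.23 (SE 0.10) had an unadjusted p of 0.0374 and an adjusted p of 0.571 in edgeR's test. Fbl had 324 and 315 CPM with DMSO and 265 and 282 with SGC0946, also without overlap (log2 difference −0.23, SE 0.12, adjusted p = 0.705). Dkc1 had 205 and 231 CPM with DMSO and 166 and 233 with SGC0946, and the groups overlapped (−0.13, SE 0.16, adjusted p = 0.914).

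Of the SMN complex, Smn1 had 158 and 201 CPM with DMSO and 151 and 149 with SGC0946. Its groups did not overlap, but the DMSO pools lay far apart (log2 difference −0.26, SE 0.15, adjusted p = 0.732), and without DMSO replicate 2 the difference was −0.08. Gemin2 had 60.9 and 61.6 CPM with DMSO and 47.1 and 66.1 with SGC0946, so that the treated pools lay on both sides of the controls (−0.11, SE 0.21, adjusted p = 0.960).

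Sart3 had 184 and 191 CPM with DMSO and 174 and 188 with SGC0946, with overlap (−0.05, SE 0.14, adjusted p = 0.975). Wrap53 had 25.2 and 16.2 CPM with DMSO and 6.56 and 20.5 with SGC0946, the widest spread of the 8 genes relative to its level (−0.61, SE 0.44, adjusted p = 0.798). Without SGC0946 replicate 1 its log2 difference was −0.0066. Without SGC0946 replicate 2, which left 1 treated pool assumed to vary like the controls, it was −1.66 (adjusted p = 0.0293), the only call among the 8 in any of 11 alternatives, over which the adjusted p of the 8 genes was otherwise above 0.05.

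Of the 8 genes, edgeR called 0, where it called 0.0% of all tested genes at an adjusted p under 0.05. DESeq2 also called 0 of the 8, where it called 0.878% of the tested genes. At an unadjusted p under 0.05 edgeR found 1 of the 8 (Nolc1), against 8.15% of all tested genes. The treated pools lay below both control pools for 3 of the 8 (Nolc1, Fbl and Smn1), against 19.2% of tested genes, and above both for 0 of the 8, against 20.1%. All 8 log2 differences were below 0, as were 48.6% of all tested. Those of Coil, Dkc1, Gemin2 and Sart3 turned to 0.04, 0.10, 0.11 and 0.01 without SGC0946 replicate 1, so that the common sign rests on that pool for these 4, and Wrap53 was close to 0 without it. With 2 pools against 2, an exact permutation test of one gene could not go below 0.333.

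H3K79me2 lay over all 8 genes in WT mESCs and over none in KO mESCs. Both WT lists had an H3K79me2 peak in the body of 8 of 8 genes, where they did in 44.4% of 18538 tested genes with a position and in 84.9% of the 7870 genes at or above the WT level of Wrap53. H3K79me3 peaks of both WT lists lay in 4 of 8, namely Nolc1, Fbl, Sart3 and Dkc1, where they did in 11.2% of the 18538 genes and 21.4% of the 7870. Wrap53 had an H3K79me3 peak in WT replicate 1 alone. Coil, at a mean of 0.945 CPM in WT, lay below the level of those 7870 genes, which include the rest of the 8. The window was set by CPM, without regard to transcript length. None of the 4 KO lists had a peak in any of the 8, where 0.108% of genes had an H3K79me2 peak in either KO list (0.0108% in both) and 0.976% an H3K79me3 peak (0.0971% in both). The nearest KO peak to any of them lay 24.8 kb from Wrap53. These are peaks that the authors called in each library, so overlap of a peak by at least 1 bp is reported without a test.

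Coil had 9 H3K79me2 peaks in each WT list and no H3K79me3 peak. They began 0.793 and 0.929 kb after its start and ended 9.60 and 9.99 kb after it, covering 34.8 and 26.6% of the gene. Fold enrichments, which are the authors' own values, ran from 3.15 to 5.92 in replicate 1 and from 2.57 to 5.55 in replicate 2. The highest peaks lay at chr11:88976257-88976578 (−log10 q of 12.0) and chr11:88976716-88977070 (10.9). Elobl and 2210409E12Rik had no peak in any list, while 3 peaks per WT list lay in the space between them, from −6.19 to −3.29 kb relative to the start of Coil.

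The level used for Coil changes what its peaks are compared with. Of 3177 genes within 2-fold of the WT level of Coil alone, 4.34% had an H3K79me2 peak in both WT lists. Of 4547 genes within 2-fold of the WT level of the 3 summed rows, 60.5% did, and this second window was chosen after the counts were seen. H3K79me3, which Coil lacked, was found in 2.61 and 6.38% of the genes in these windows. Coil carried the mark in either case, at a mean coverage of 30.7% ± 5.75 (SD, n = 2).

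**Figure D3:**
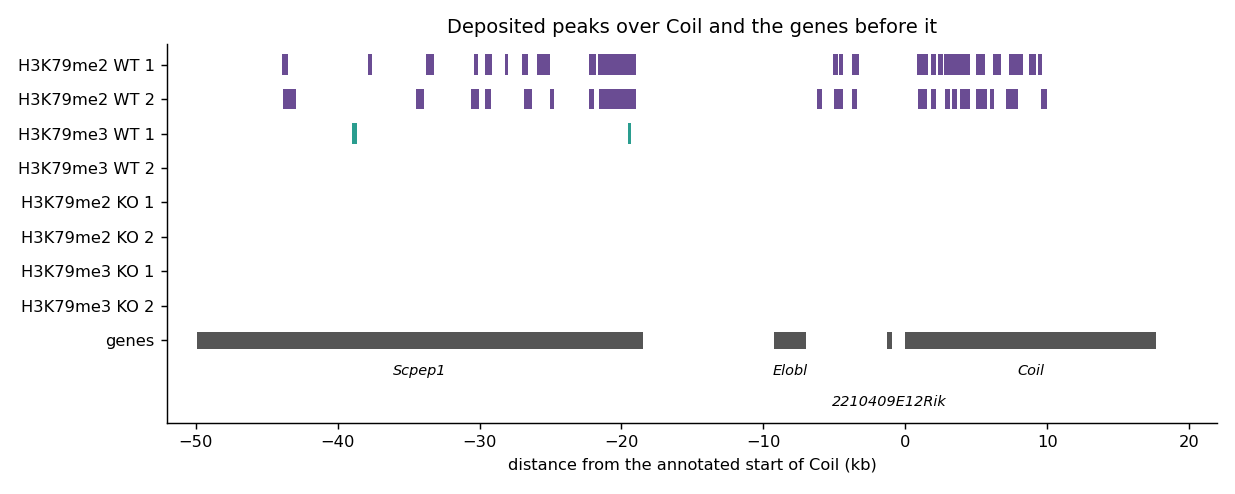
Peaks of each H3K79me2 and H3K79me3 list (rows of bars) and gene bodies (grey) by distance in kb from the annotated start of Coil, with upstream to the left. H3K79me2 peaks of both WT lists lie over the first 9.99 kb of Coil and over Scpep1, with 3 per list between Elobl and 2210409E12Rik, and no KO list has a peak in the window.

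The genes differed in how much of their length carried the mark. Mean H3K79me2 coverage was 61.2% of Fbl, 60.3% of Wrap53, 58.5% of Dkc1, 54.6% of Sart3 and 54.4% of Nolc1, and the 2 WT lists of these 5 differed by SDs of 0.787 to 4.94 percentage points, so their order is not resolved. Coil followed at 30.7%, then Smn1 at 12.1% ± 2.65 and Gemin2 at 5.02% ± 3.58 (SD, n = 2). The median over 8228 genes marked in both lists was 21.0%. So 6 of the 8 lay above that median, and both genes of the SMN complex lay below it. For Coil this depended on the genes compared. The median was 46.1% for marked genes within 2-fold of its WT level, and 13.5% within 2-fold of the summed level. It was 23.3% for marked genes at or above the WT level of Wrap53. Gene length was not matched in these medians.

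Fbl had the strongest single H3K79me2 peak of the 8, at chr7:28170117-28176206 in WT replicate 1, enriched 16.0-fold (−log10 q, 61.3), and it was called at 10.2-fold (37.6) in replicate 2. Nolc1 followed with a peak at chr19:46076065-46080585 in replicate 1, at 13.9-fold (50.9), and 11.6-fold (39.4) in replicate 2. Gemin2 had the lowest, at 3.93- and 4.60-fold in the 2 lists, beginning at chr12:59013961-59014764 in replicate 1.

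H3K79me3 covered less of each gene than H3K79me2. Fbl had 7 and 3 peaks that covered 31.2 and 10.8% of it, Nolc1 had 20.9 and 13.6% covered, and Dkc1 had 15.2 and 13.1%. Sart3 had 5.21 and 1.62% covered, Wrap53 had 1.54% in 1 list, and Smn1, Gemin2 and Coil had none. The median coverage of the 2082 genes with H3K79me3 in both lists was 5.05%. In mESC RNA, the 4 genes with H3K79me3 in both lists had log2 differences of −1.04, −0.20, −0.03 and 0.03.

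**Figure D4:**
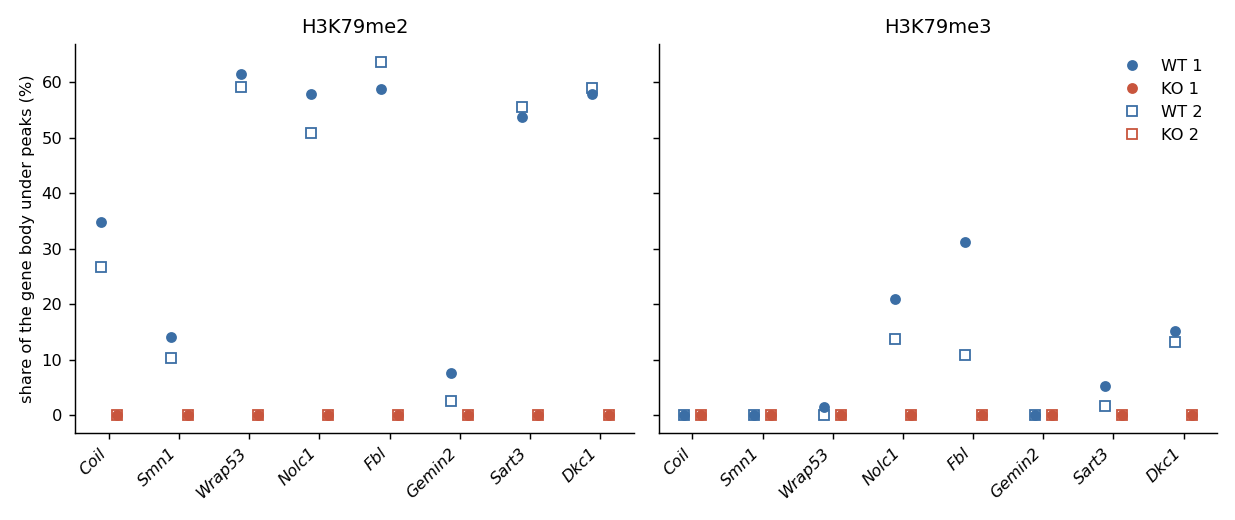
Share of each gene body under peaks in percent, for H3K79me2 (left) and H3K79me3 (right), with WT lists in blue and KO lists in red (replicate 1 filled, replicate 2 open). H3K79me2 covers more than 50% of 5 genes, 30.7% of Coil on average and less than 15% of Smn1 and Gemin2, and every KO value is 0.

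The wider Cajal body machinery was read from a list of 67 other genes in 10 groups, of which 66 had a row and were tested in mESCs. Of these, 34 passed the test in KO against WT (edgeR adjusted p under 0.05), 12 higher and 22 lower, which is 51.5% against 43.9% of all tested genes. The median log2 difference was −0.06, against 0.00 over all genes. With upper-quartile scaling the split turned to 22 higher and 16 lower, and without KO replicate 1 it was 16 and 15. Over all 19532 tested genes, upper-quartile scaling moved the split the same way, from 4351 higher and 4221 lower to 5503 and 3168. The direction of the list as a whole therefore depended on the scaling and on KO replicate 1.

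The SMN complex and its partners in snRNP assembly had 10 lower and 1 higher calls of 14, beside 21.6% lower and 22.3% higher over all tested genes, and a median of −0.19. Gemin8, which binds Gemin7 within the SMN complex and is the only listed gene on chromosome X, fell by 0.50 (SE 0.08, adjusted p = 0.00016) on the log2 scale, from 18.7, 16.8 and 18.3 CPM in WT to 12.5 and 12.7 in KO. Gemin4, another subunit, fell by 0.37 (SE 0.06, adjusted p = 0.00027), and Prmt5, which dimethylates arginines of Sm proteins, fell by 0.34 (SE 0.05, adjusted p = 7.7e-05). Snupn, the import adaptor of snRNPs, was the call upward (0.22, SE 0.07, adjusted p = 0.0204), and it was named after its values were seen. Snupn was called in 9 of 13 settings, with an adjusted p from 0.0045 to 0.0918, and not with DESeq2, the replicate block, without WT replicate 3 or without KO replicate 1. The lower calls of this group were 6 with upper-quartile scaling and 6 without KO replicate 1. Over all 19532 tested genes, lower calls were 3168 with upper-quartile scaling and 4221 with TMM scaling. The log2 differences of Gemin2 and Smn1 were also below 0.

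Of box C/D core proteins, partners of fibrillarin, 2 of 3 fell (21.6% of all tested genes did), among them Nop56 by 0.40 (SE 0.06, adjusted p = 8.3e-05), from 440, 456 and 462 CPM to 317 and 370. Of the partners of dyskerin, 1 of 5 fell, a share near that of all tested genes. It was Gar1 (by 0.31, SE 0.08, adjusted p = 0.0059), whose adjusted p was 0.0567 without KO replicate 1, and the other 4 had log2 differences of −0.01 to 0.10, against −1.04 for Dkc1. All 4 nucleolar and coilin partners fell, of which Vrk1 encodes a kinase that phosphorylates coilin (−0.14, SE 0.05, adjusted p = 0.0264). Vrk1 was called in 7 of 13 settings, with an adjusted p of up to 0.24, and lost its call with upper-quartile scaling, the replicate block, without any one WT library and without KO replicate 2. Gar1 and Vrk1 were named after their values were seen.

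Genes for snRNA transcription and processing had 4 higher and 2 lower calls of 12, so that 50.0% were called, near the 43.9% of all tested genes. With upper-quartile scaling they had 8 and 2, where 5503 of all 19532 tested genes were called higher and 3168 lower. Snapc1, a subunit of the complex that binds snRNA promoters, rose by 0.56 (SE 0.06, adjusted p = 7.4e-06), from 29.0, 32.7 and 30.7 CPM to 46.8 and 44.3. Ice2, of the little elongation complex at snRNA genes, rose by 0.51 (SE 0.06, adjusted p = 1.2e-05). Ruvbl2, an ATPase that helps assemble box C/D and H/ACA particles, rose by 0.53 (SE 0.04, adjusted p = 3.8e-07), and Tert, the reverse transcriptase of telomerase, by 0.44 (SE 0.07, adjusted p = 0.00032). Among the remaining groups, R2TP and snoRNP assembly genes had 1 higher and 1 lower of 5, telomerase genes 1 and 0 of 3, Sm proteins 1 and 1 of 7, U4/U6.U5 tri-snRNP genes 2 and 1 of 7, and genes of the histone locus body, which often lies beside Cajal bodies, 2 and 0 of 6. Both calls of the histone locus body were lost with DESeq2 and without WT replicate 2, and these small groups are given as counts only.

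In embryos, edgeR called 0 of 66 tested genes of the list, where it called 0.0% of all tested genes. At an unadjusted p under 0.05 it found 4 of the 66, against 8.15% of all tested genes. DESeq2 called 1 of the 66, against 0.878% of all tested genes. The lowest p-values belonged to Prmt5, Gemin4 and Nhp2, a box H/ACA core protein. Prmt5 had 287 and 307 CPM with DMSO and 176 and 232 with SGC0946, without overlap (log2 difference −0.54, SE 0.15, edgeR adjusted p = 0.346). Gemin4 had 94.4 and 108.1 CPM with DMSO and 52.3 and 74.6 with SGC0946 (−0.67, SE 0.20, adjusted p = 0.384), and it was called with the replicate block (0.022) and without SGC0946 replicate 2 (0.00867), over a range of 0.00867 to 0.996. Nhp2 had a log2 difference of −0.38 (SE 0.13, adjusted p = 0.446). Prmt5 was called by DESeq2 (adjusted p = 0.0353), in edgeR without the filter (0.0375), with the replicate block (0.012) and without SGC0946 replicate 2 (0.00259). Its adjusted p ran from 0.00259 to 0.842 over all settings, and its log2 difference was below 0 in each of them, from −0.75 to −0.36.

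**Figure D5:**
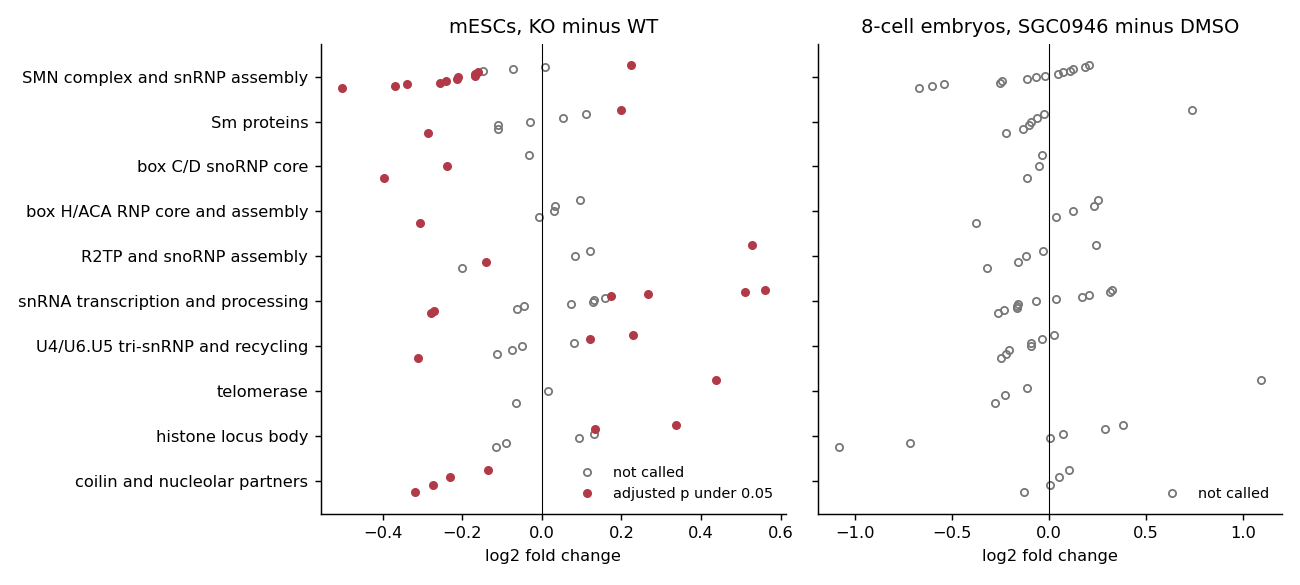
Log2 fold change of each listed gene by group, in mESCs (left, KO minus WT) and embryos (right, SGC0946 minus DMSO); filled red points passed an adjusted p under 0.05 and open points did not. In mESCs 10 of 14 genes of the SMN complex and snRNP assembly fell, and in embryos no gene was called.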

How the data were processed

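For mESCs the authors deposited estimated counts (expected counts) by Ensembl gene; 59.2 to 60.0% of values per library were whole within 1e-06. For embryos they deposited read counts, all whole, by gene symbol. The submitters' processing notes name kallisto, STAR and HTSeq for RNA, Bowtie2 and MACS2 for ChIP, and mm10, without roles, versions or settings. For WT mESC replicate 1 they name kallisto alone, and for the other mESC libraries also STAR and HTSeq, so whether these were processed alike is not known; strandedness of counting is not given in the sources used here. Replicate libraries of each group differed by more than counting noise. In the deposited narrowPeak lists, one per library, each peak has the authors' own fold enrichment (ratio) and −log10 q; input libraries were not used.

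Estimated counts were rounded, and each table was fitted on its own with edgeR 4.0.16 in R 4.3.3 (filterByExpr, TMM scaling, quasi-likelihood F test, Benjamini-Hochberg over all tested genes). SEs are the log2 fold change divided by the root of F. Gene positions and promoters are from RefSeq on GRCm38.p6; exons were not used. Fits were tested on simulated data.

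The 8 genes, the list of 67, the markers and the tests were chosen with earlier results of these data known. Named genes are the 8, the 3 protein-coding neighbours of Coil on each side, the 3 genes most like Coil, and of the list the 4 largest rises and falls among called genes or, with none called, the 3 lowest p-values. A few others are named after their values were seen, as the text says. Alternatives were DESeq2 1.42.0 and its size factors, upper-quartile scaling, limma-voom (limma 3.58.1), no filter, a minimum of 10 counts in each library, a replicate block and leaving out each library. For peaks they were a −log10 q of at least 5, 50% of a peak inside the gene, 2 kb either side and single lists.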

Additional observations from a re-analysis of the deposited data

How the results depend on the processing

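In mESCs, Coil had a log2 fold change of 4.27 with upper-quartile scaling and 4.18 to 4.23 when each library was left out. Summing it with Elobl and 2210409E12Rik, chosen after seeing the data, gave 0.16. Sart3 turned to 0.04 with upper-quartile scaling. The number of the 8 genes above 0 was 3 in every fit that left out a library. Listed genes called in mESCs numbered 34, and 27 to 39 when each library was left out. In embryos, listed genes called went from 0 to 1 with DESeq2, 1 without the filter and 0 to 2 when each pool was left out, and the 8 genes called to 0 to 1. When each pool was left out, the embryo log2 fold change ran from −0.62 to 0.041 for Coil, −0.38 to 0.11 for Gemin2, −0.10 to 0.0084 for Sart3 and −0.39 to 0.10 for Dkc1, with the values above 0 arising without SGC0946 replicate 1, and from −1.66 to −0.0066 for Wrap53, without SGC0946 replicate 2 and 1. The cause was not tested. H3K79me2 was over 8 genes and H3K79me3 over 4 to 5 when single lists were used.

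Replicate numbers are shared between groups. Deviations of same-numbered libraries had correlations of 0.01 and −0.03 in mESCs and 0.05 in embryos. With 2 pools per group, both embryo pairs must give the same value. Whether same-numbered libraries were paired is therefore not known. With the replicate block, listed genes called were 34 in mESCs and 2 in embryos, and 0 of the 8 were called in embryos. With 2 embryo pools per group, small differences were not detectable at this spread.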

Other observations

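The embryo table also held 9 rows of Scarna genes, the small Cajal body RNAs that guide modification of spliceosomal RNAs, and these were looked at after the other values were seen. Of these, 7 were tested and 2 were at 0 in every pool. No gene was called by edgeR. The SGC0946 pools lay above both DMSO pools for 3 of the 7 tested, where this held for 20.1% of all tested genes. Scarna6 had 348 and 320 counts with DMSO and 675 and 475 with SGC0946, a log2 difference of 0.69 (SE 0.34, edgeR adjusted p = 0.645). Scarna2 had 409 and 800 counts with DMSO and 473 and 541 with SGC0946, so the control pools enclosed the treated ones. The mESC table held 0 rows with a Scarna name, so these RNAs could not be compared there.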
